A study of Oryctolagus cuniculus with 12 samples.

Results

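The genes described here are the enzymes that build cholesterol and fatty acids, together with the proteins that set their level. A list of 31 gene symbols was matched to the name column of the deposited gene table of 20566 rows. Of these 31 genes, 26 had a row of that name, and all 26 passed the filter on low counts that left 14835 genes for testing. No row was named MVD, IDI1, DHCR7, FASN, or SCD, and these 5 genes were not analysed under their own names. The list was not chosen by a threshold on any value.

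RNA was sequenced from conjunctiva of female Japanese white rabbits, 12 to 14 weeks old by the study's methods, in 4 groups of 3 libraries each. The operated right eyes had trabeculectomy, a glaucoma operation that drains aqueous humor under the conjunctiva into a filtering bleb, and bleb conjunctiva was taken at 3 hours (TL3h), 3 days (TL3d), or 14 days (TL14d). The control group was conjunctiva of left eyes. All operated eyes also received mitomycin C, an antiproliferative agent, and, by the study's methods, a conjunctival injection of betamethasone, a glucocorticoid, and an ointment of erythromycin and colistin, so the surgery and these agents cannot be told apart. The study took its trabeculectomy sequence data from an earlier analysis. Whether its stated age, betamethasone, and ointment held for the animals sequenced is not stated there. The control eyes belonged to animals that were operated on in the other eye, and the time at which they were taken was not given in the labels. The labels do not say which libraries share an animal, so p-values measure only the spread between these samples.

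Cholesterol is made from acetyl-CoA through mevalonate, farnesyl diphosphate, and squalene, which is closed into lanosterol and then trimmed to cholesterol. When sterol in the endoplasmic reticulum is low, SCAP carries the SREBP transcription factors to the Golgi, where they are cleaved and released to raise the transcription of these enzymes. When sterol is high, INSIG proteins hold SCAP back. Fatty acids are made from citrate-derived acetyl-CoA and are then lengthened by ELOVL enzymes and desaturated by FADS and SCD enzymes. In the ocular surface these lipids serve cell membranes and the lipid layer of the tear film.

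Levels are given as CPM, counts scaled to a common depth with TMM-adjusted library sizes, and a gene passed the test where its Benjamini-Hochberg adjusted p-value (q) was below 0.05 in edgeR's quasi-likelihood test over all 14835 genes. Estimated totals were 27111348 to 38591425 counts per library, and the TMM factors were 0.768 to 0.783 at TL3h and 1.03 to 1.13 in the other groups. In bulk tissue, fewer cells of a type and less RNA per cell cannot be told apart. The summed level of 10 leukocyte markers was 222 to 568 CPM in control, 1383 to 2928 CPM at TL3h, 1887 to 2308 CPM at TL3d, and 229 to 1005 CPM at TL14d, and 9 of the 10 were higher than control at TL3h and at TL3d. The 6 proliferation markers summed to 75.0 to 158 CPM in control, 16.8 to 31.1 CPM at TL3h, and 248 to 283 CPM at TL3d. The tissue label was met by 9 epithelial markers, which summed to 6682 to 14660 CPM in control, 5819 to 10367 CPM at TL3h, where 1 was higher and 2 were lower, and 9952 to 23824 CPM at TL3d, where 1 was higher. The 6 fibroblast markers spanned 12161 to 76287 CPM in control, 105042 to 125553 CPM at TL3h, and 1328 to 64685 CPM at TL3d, without any of them passing at TL3h or TL3d. The 6 endothelial markers summed to 67.4 to 290 CPM in control, 630 to 1249 CPM at TL3h, where 2 were higher, and 300.3 to 559 CPM at TL3d, above control in every library without any marker passing. Of 10 adipocyte markers, PLIN1 and PLIN4 had no row of that name, and the 6 tested summed to 101 to 458 CPM in control, 344 to 451 CPM at TL3h, where none passed, and 69.3 to 182 CPM at TL3d, where 1 was lower. The 5 tested sebaceous and meibomian gland markers summed to 8.66 to 18.5 CPM in control, 11.4 to 11.9 CPM at TL3h, where 1 was lower, and 3.82 to 7.28 CPM at TL3d, where 2 were lower. At TL3h 1 of 4 goblet cell markers was lower, and at TL3d none passed. The 7 tested Schwann cell markers summed to 22.4 to 31.7 CPM in control, 37.4 to 53.7 CPM at TL3h, where 1 was higher, and 10.99 to 16.1 CPM at TL3d, below control in every library without any marker passing. The 4 tested skeletal muscle markers summed to 305 CPM in control replicate 2, 387 CPM in TL3d replicate 3, and at most 9.65 CPM elsewhere. The part of these markers in the results below was not tested.

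At TL3h, 14 of the 26 genes differed from control. Higher were ACAT2, HMGCS1, SQLE, MSMO1, HSD17B7, SC5D, ELOVL1, ELOVL5, and FADS1, and lower were MVK, LSS, SREBF1, SCAP, and ELOVL6. These 9 higher genes made up 34.6% of the 26, beside 23.2% of all genes tested, and the 5 lower genes made up 19.2%, beside 22.2% of all genes. In 18 of the 26 genes (69.2%) the 3 TL3h libraries lay wholly above or wholly below the 3 control libraries, which was the case for 57.3% of all genes. The median log2 fold change was 0.56 over the 26 genes and 0.02 over all genes. When libraries were scaled by total count alone, the median of all genes at TL3h moved to -0.47, and 12 of the 26 genes passed, 3 higher and 9 lower, beside 7563 of all genes, of which 25.0% were higher. SQLE, HSD17B7, and FADS1 were the 3 higher genes under that scaling. Without control replicate 1, 8 of the 26 genes passed, 7 higher and 1 lower, and the count over all genes went from 6733 to 5280. Without TL3h replicate 3, 10 of the 26 genes passed, 4 higher and 6 lower, so the balance toward higher genes turned round, beside 5752 of all genes, of which 49.1% were higher.

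At TL3d, 5 of the 26 genes differed from control. FDFT1, SQLE, NSDHL, and STARD4 were higher, at 15.4% of the 26 beside 10.6% of all genes, and SREBF1 was lower, at 3.85% beside 7.0% of all genes. The libraries did not overlap with control in 14 of the 26 genes (53.8%), 12 above and 2 below, beside 45.5% of all genes. The median log2 fold change was 0.45 over the 26 genes and 0.00 over all genes, and 20 of the 26 estimates were above 0. The count of 5 moved with single libraries. It was 0 without control replicate 1, control replicate 2, TL3d replicate 1, or TL3d replicate 2, where the count over all genes fell as well, from 2608 to 491, 370, 449, and 359, respectively. It was 2 without control replicate 3 and 3 without TL3h replicate 1 or TL14d replicate 3, beside 2215, 2112, and 2093 of all genes, respectively. It was 9 with DESeq2, which called 4471 of all genes.

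At TL14d, none of the 26 genes passed, as for all genes, of which 0% were higher and 0% were lower in edgeR's quasi-likelihood test. An unadjusted p below 0.05 was reached by 4 of the 26 genes (ACAT2, FDPS, NSDHL, and STARD4) and by 1538 of all genes. DESeq2 called 367 of all genes and 0 of the 26. As at TL3d, 20 of the 26 estimates were above 0, with a median log2 fold change of 0.19, beside 0.02 over all genes. In 3 of the 26 genes (MVK, EBP, and SREBF2, 11.5%) the TL14d libraries lay wholly above control, beside 11.1% of all genes with no overlap in either direction. Over the 3 time points jointly, 14 of the 26 genes passed (53.8%), beside 52.4% of all genes.

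**Figure D1:**
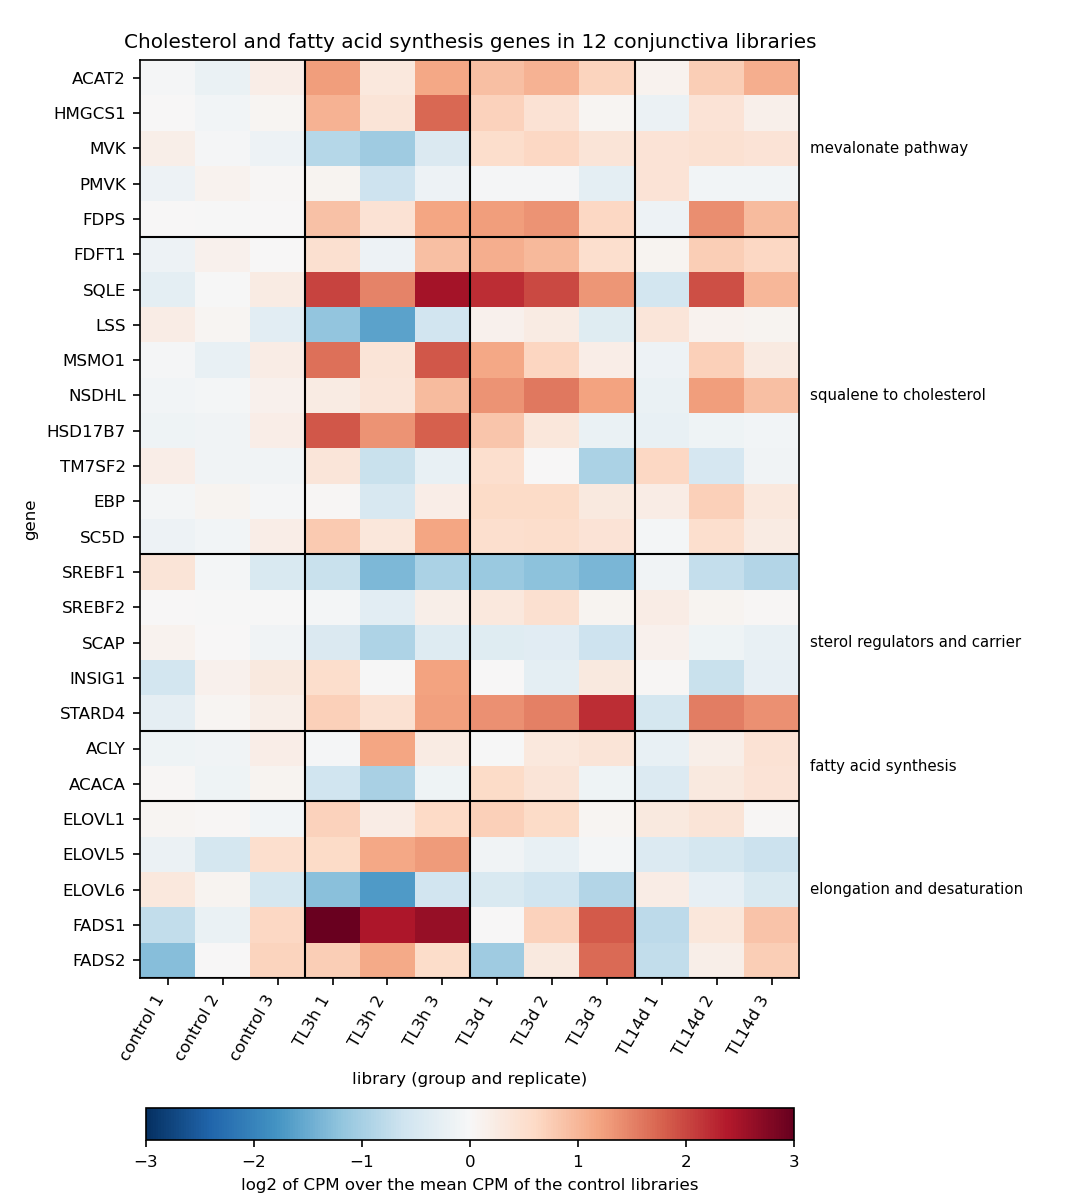
Levels of the 26 genes in 12 libraries, as the log2 of CPM over the mean CPM of the 3 control libraries, with genes in rows by role and libraries in columns by group. Red is higher and blue is lower than the control mean. FADS1, SQLE, HSD17B7, and MSMO1 are red in all 3 TL3h columns, LSS and ELOVL6 are blue there, and the first TL14d column stays near the control colors.

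The mevalonate pathway was represented by ACAT2, HMGCS1, MVK, PMVK, and FDPS. At TL3h, 2 of these 5 genes were higher, 1 was lower, and 2 did not pass, and at TL3d none of the 5 passed. Over all genes, 23.2% were higher and 22.2% lower at TL3h, and 10.6% and 7.0%, respectively, at TL3d. HMGCS1, which makes HMG-CoA (chromosome 11, 64082862 to 64104247, - strand in OryCun2.0), measured 86.5, 80.4, and 88.5 CPM in the 3 control libraries and 175, 111, and 283 CPM at TL3h. All TL3h libraries were above all control libraries, and TL3h replicate 3 was far above the others of its group (log2 fold change 1.16, SE 0.31, q = 0.0112). HMGCS1 then measured 137, 115, and 88.7 CPM at TL3d (log2 fold change 0.42, q = 0.346) and 75.01, 113, and 94.2 CPM at TL14d. ACAT2, the cytosolic thiolase that joins acetyl-CoA units (chromosome 12, 149618567 to 149629091, + strand), rose from 28.4 ± 4.06 CPM (SD, n = 3) to 55.5 ± 17.5 CPM at TL3h (log2 fold change 0.97, SE 0.28, q = 0.0184). At TL3d ACAT2 measured 52.2 ± 6.60 CPM, above control in every library but with q = 0.0571. All 12 ACAT2 counts were fractions, and the gene overlaps TCP1 on the opposite strand by 98 bases, and whether reads were shared was not tested.

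MVK, mevalonate kinase (unplaced sequence), went the other way at 3 hours. It measured 5.70, 4.90, and 4.54 CPM in control, 2.81, 2.41, and 3.73 CPM at TL3h, 7.29, 7.73, and 6.60 CPM at TL3d, and 6.69, 6.96, and 6.74 CPM at TL14d. TL3h lay wholly below control, and both later groups lay wholly above it. The fall at TL3h passed (log2 fold change -0.76, SE 0.20, q = 0.0123), while TL3d (log2 fold change 0.51, q = 0.0979) and TL14d (log2 fold change 0.43, q = 0.499) did not differ from control by the test. PMVK, the kinase that follows MVK (chromosome 13, 37726361 to 37739512, + strand), measured 29.03 ± 2.52 CPM in control and 25.2 ± 5.81 CPM at TL3h, with overlapping libraries and a 95% interval of the log2 fold change of -0.65 to 0.24. FDPS, which makes farnesyl diphosphate (chromosome 13, 37386879 to 37396869, - strand), measured 8.38, 8.30, and 8.35 CPM in control, 15.5, 11.3, and 18.95 CPM at TL3h, and 19.9, 21.1, and 12.8 CPM at TL3d. The control libraries were nearly alike, and every TL3h and TL3d library was above them, but neither difference passed (log2 fold change 0.87, q = 0.0706 and log2 fold change 1.10, q = 0.0578, respectively). FDPS did pass in 3 of 18 alternatives at TL3h and in 5 of 18 at TL3d. The calls of ACAT2 and HMGCS1 were lost when libraries were scaled by total count alone and without TL3h replicate 3, and those of ACAT2 and MVK without control replicate 1. That of MVK was also lost when only the libraries compared were fitted. That of ACAT2 was further lost without control replicate 2 or TL3h replicate 1.

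From squalene to cholesterol, 9 enzymes were measured. At TL3h, 4 of the 9 were higher, 1 was lower, and 4 did not pass, and at TL3d, 3 of the 9 were higher and 6 did not pass. The shares over all genes were 23.2% higher and 22.2% lower at TL3h, and 10.6% and 7.0%, respectively, at TL3d. SQLE, squalene epoxidase, a rate-limiting enzyme of the later pathway (chromosome 3, 140710599 to 140735970, + strand), measured 10.5, 12.7, and 15.1 CPM in control, 52.4, 35.7, and 71.7 CPM at TL3h, 59.4, 50.04, and 31.99 CPM at TL3d, and 8.77, 48.9, and 25.7 CPM at TL14d. Every TL3h and TL3d library exceeded the highest control library, whereas the TL14d libraries ran from below control to the level of TL3d. SQLE was 4.18-fold higher at TL3h (log2 fold change 2.06, SE 0.53, q = 0.0095) and 3.70-fold higher at TL3d (log2 fold change 1.89, SE 0.52, q = 0.0366). The call at TL3h held under all alternatives run, and that at TL3d was lost in 7 of 18, each of which left out 1 library.

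HSD17B7, a ketosteroid reductase that acts in removing the methyl groups of lanosterol (chromosome 13, 30171145 to 30194703, - strand), measured 40.4, 40.6, and 50.9 CPM in control and 160.3, 112, and 152 CPM at TL3h. The lowest TL3h library was far above the highest control library, and the change was 3.22-fold (log2 fold change 1.69, SE 0.24, q = 0.000455). By TL3d the values were 78.6, 55.2, and 38.2 CPM, and by TL14d they were 37.7, 40.4, and 41.8 CPM, both overlapping control. MSMO1, the oxidase of the same demethylation (unplaced sequence), measured 67.6, 59.3, and 81.3 CPM in control, 218, 90.1, and 254 CPM at TL3h, and 154, 109, and 79.3 CPM at TL3d. TL3h replicate 2 was close to control and the other 2 TL3h libraries were far above it (log2 fold change 1.43, SE 0.39, q = 0.0124), and TL3d overlapped control (log2 fold change 0.72, q = 0.2). NSDHL, the dehydrogenase of the same step (unplaced sequence), followed another course, with 12.2, 12.3, and 14.02 CPM in control, 15.3, 16.4, and 24.6 CPM at TL3h, 32.9, 38.2, and 29.7 CPM at TL3d, and 11.2, 30.4, and 23.9 CPM at TL14d. Its TL3d libraries were above every library of control and TL3h, and NSDHL passed at TL3d (log2 fold change 1.39, SE 0.32, q = 0.0218) but not at TL3h (log2 fold change 0.55, q = 0.193). The difference between TL3d and TL3h itself did not pass for NSDHL (log2 fold change 0.84, q = 0.0631), though it passed in 7 of 18 alternatives. The MSMO1 call was lost under scaling by total count and without control replicate 2 or TL3h replicate 3, and the NSDHL call without control replicate 1, control replicate 2, TL3d replicate 1, or TL3d replicate 2.

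LSS, lanosterol synthase, which closes the sterol rings (chromosome 14, 163767608 to 163796727, + strand), fell at TL3h. It measured 94.1, 83.6, and 65.2 CPM in control, 35.6, 26.4, and 54.4 CPM at TL3h, 88.5, 96.1, and 62.5 CPM at TL3d, and 104, 86.7, and 86.1 CPM at TL14d. All TL3h libraries were below all control libraries (log2 fold change -1.06, SE 0.26, q = 0.00844), a call that held under all alternatives run, and TL3d was at the control level (log2 fold change 0.03, q = 0.954). LSS thus fell in the same libraries in which SQLE, the enzyme just before it, rose. FDFT1, squalene synthase (chromosome 2, 38158475 to 38186372, - strand), measured 27.7, 33.3, and 30.9 CPM in control, 42.7, 27.6, and 57.4 CPM at TL3h, and 65.7, 60.3, and 43.3 CPM at TL3d. TL3h overlapped control and TL3d did not, and the TL3d call lay at the threshold (log2 fold change 0.88, SE 0.27, q = 0.0496) and was lost in 12 of 18 alternatives. SC5D, an oxidase late in the pathway (chromosome 1, 96673451 to 96692367, - strand), rose from 35.99 ± 4.88 CPM to 63.1 ± 17.7 CPM at TL3h (log2 fold change 0.81, SE 0.21, q = 0.0106) and was at 50.04 ± 2.23 CPM at TL3d. The SC5D call was lost under scaling by total count and without TL3h replicate 3. EBP, the sterol isomerase (chromosome X, 33228931 to 33234453, + strand), measured 19.6 ± 0.974 CPM in control, 18.8 ± 4.39 CPM at TL3h, and 27.7 ± 3.01 CPM at TL3d, and TM7SF2, a sterol reductase (unplaced sequence), measured 13.3 ± 1.72, 12.3 ± 4.44, and 13.1 ± 5.97 CPM. Neither passed at any time against control.

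**Figure D2:**
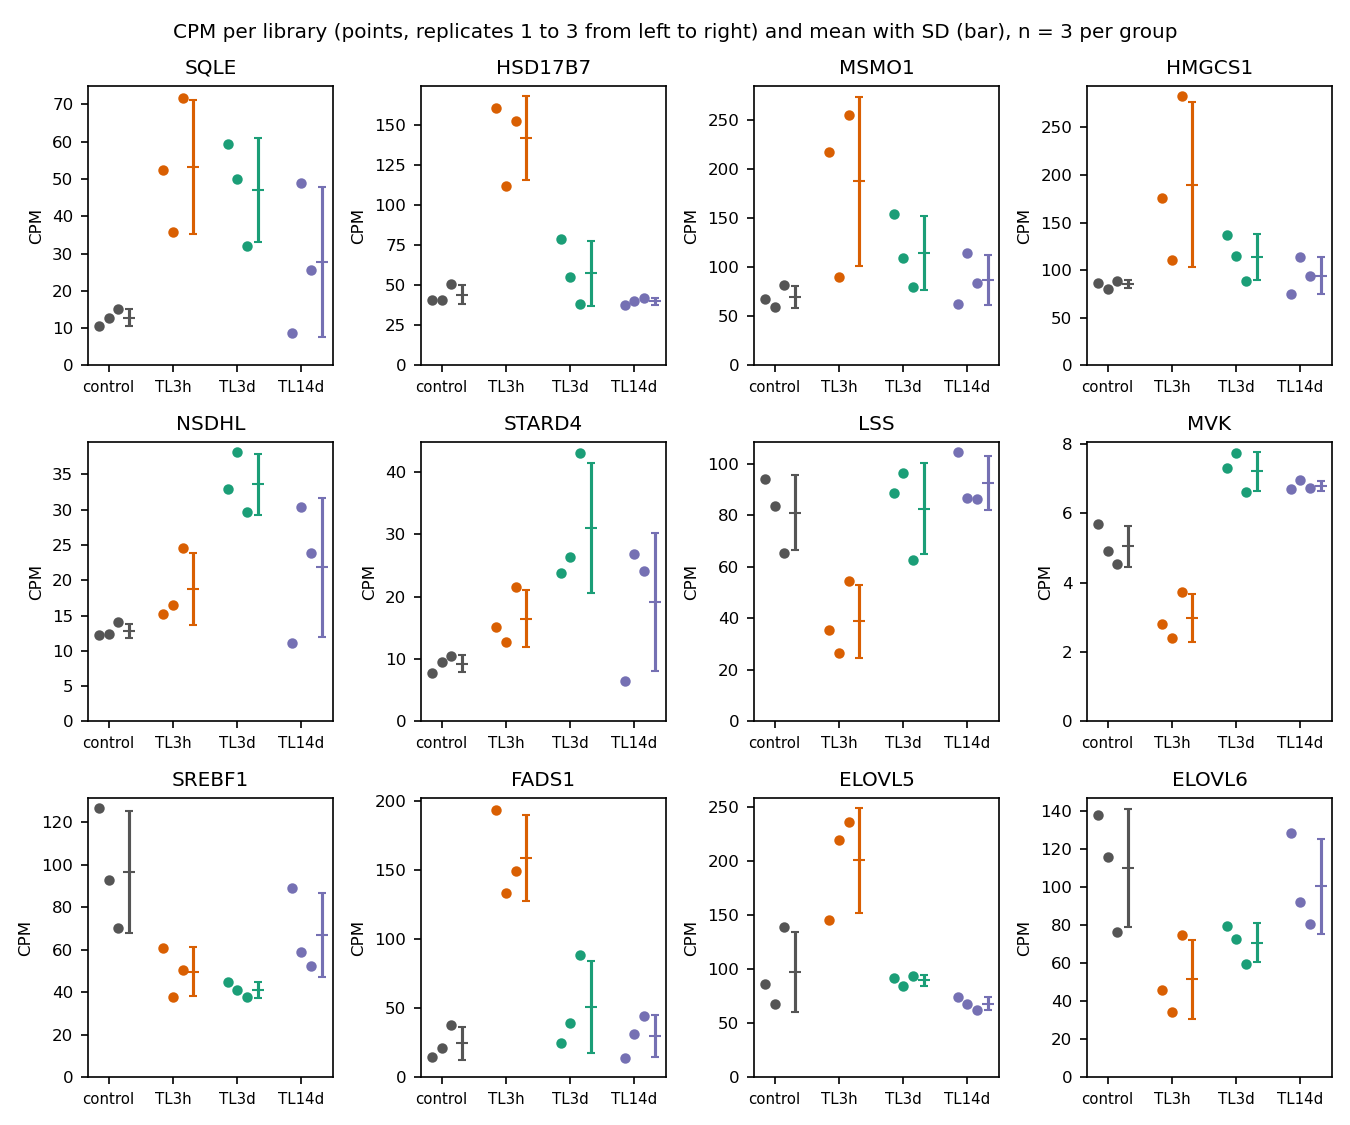
CPM of 12 of the genes in each library, with 1 panel per gene, 1 point per library, and a bar for the mean and SD of the 3 libraries of each group. SQLE, HSD17B7, and FADS1 have all TL3h points above control, LSS, MVK, SREBF1, and ELOVL6 have them below, and NSDHL and STARD4 have all TL3d points above control.

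Among the regulators and the sterol carrier, none of 5 genes was higher at TL3h and 2 were lower, and at TL3d 1 was higher and 1 was lower. Beside them, 23.2% of all genes were higher and 22.2% lower at TL3h, and 10.6% and 7.0%, respectively, at TL3d. SREBF1, which encodes the SREBP factor tied mainly to fatty acid synthesis (unplaced sequence), measured 127, 93.05, and 70.1 CPM in control, 61.04, 37.9, and 50.3 CPM at TL3h, 44.9, 41.02, and 37.6 CPM at TL3d, and 89.3, 58.9, and 52.3 CPM at TL14d. The TL3h and TL3d libraries all lay below the lowest control library, and 2 of the 3 TL14d libraries did too. SREBF1 was the only 1 of the 26 genes that passed in the lower direction both at TL3h (log2 fold change -0.96, SE 0.27, q = 0.0145) and at TL3d (log2 fold change -1.23, SE 0.27, q = 0.018), comparisons that share the control libraries. The 3 control values ran in the same order as the summed epithelial markers of those libraries (14660, 11786, and 6682 CPM) and against the order of the fibroblast markers (12161, 35466, and 76287 CPM). At TL3d, where SREBF1 had its lowest mean, the epithelial markers summed to 23824, 21692, and 9952 CPM, above control in 2 of the 3 libraries. Within TL3d and within TL3h, where these markers summed to 10367, 5819, and 8897 CPM, SREBF1 ran in their order too. Within TL14d, where they summed to 14329, 19651, and 14939 CPM, SREBF1 did not. The part of these markers in the SREBF1 level was not tested. Without control replicate 1, the library with the highest SREBF1 level, both calls were lost. The TL3d call was also lost without control replicate 2, TL3d replicate 1, or TL3d replicate 2.

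SREBF2, which encodes the SREBP factor tied mainly to cholesterol synthesis (unplaced sequence), measured 102, 100.2, and 99.3 CPM in control, 95.8, 80.1, and 114 CPM at TL3h, and 125, 139, and 105 CPM at TL3d. Its log2 fold change at TL3h had a 95% interval of -0.38 to 0.28, the narrowest of the 26 genes in that comparison. SCAP, the escort of the SREBP proteins (chromosome 9, 15338550 to 15416559, - strand), measured 125, 117, and 108 CPM in control and 86.5, 61.7, and 89.3 CPM at TL3h, wholly below control (log2 fold change -0.56, SE 0.16, q = 0.018). SCAP was also wholly below control at TL3d with 90.6, 91.8, and 75.8 CPM, a difference that did not pass (log2 fold change -0.44, q = 0.0846). The SCAP call at TL3h was lost without control replicate 1. SCAP overlaps a gene on the opposite strand by 2560 bases, and whether the counting used strand was not stated. INSIG1, which retains SCAP and is itself a target of the SREBP factors (chromosome 13, 11973217 to 11983345, - strand), measured 42.8, 68.2, and 76.5 CPM in control and 90.6, 62.1, and 144 CPM at TL3h, with overlapping libraries (log2 fold change 0.66, q = 0.128). STARD4, a soluble carrier of sterol between membranes (unplaced sequence), measured 7.71, 9.61, and 10.5 CPM in control, 15.1, 12.7, and 21.6 CPM at TL3h, 23.8, 26.3, and 43.00 CPM at TL3d, and 6.46, 26.9, and 24.2 CPM at TL14d. Every TL3h and TL3d library was above control, and the TL3d difference passed (log2 fold change 1.74, SE 0.47, q = 0.0324), although it was lost without any 1 of the control or TL3d libraries. The difference between TL3d and TL3h itself did not pass for STARD4 (log2 fold change 0.91, q = 0.141), though it passed in 3 of 18 alternatives.

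For fatty acid synthesis proper, ACLY and ACACA were measured and neither passed against control at any time. ACLY, the lyase that makes cytosolic acetyl-CoA from citrate (chromosome 19, 42758817 to 42801568, - strand), measured 162, 166, and 204 CPM in control and 174, 403, and 212 CPM at TL3h. The high value belonged to TL3h replicate 2 alone, the library that was the lowest of its group for 22 of the 26 genes, and the other 2 TL3h libraries lay within or next to the control range (log2 fold change 0.57, q = 0.149). ACACA, acetyl-CoA carboxylase, the committed step (chromosome 19, 25527119 to 25844963, + strand), measured 71.9, 64.3, and 73.8 CPM in control, 46.1, 35.97, and 63.8 CPM at TL3h, and 104, 91.6, and 63.6 CPM at TL3d. TL3h lay wholly below control without passing (log2 fold change -0.53, q = 0.136). All 12 ACACA counts were fractions, and ACACA overlaps TADA2A and C19H17orf78 on the opposite strand.

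Elongases and desaturases held the change with the greatest fold among the 26 genes. FADS1, a desaturase of polyunsaturated fatty acids (unplaced sequence), measured 14.8, 21.5, and 37.6 CPM in control, 193, 133, and 149.7 CPM at TL3h, 24.8, 39.7, and 88.8 CPM at TL3d, and 14.2, 31.2, and 44.3 CPM at TL14d. All TL3h libraries were far above control and above every other library, of which TL3d replicate 3 came nearest, and the change against control was 6.44-fold (log2 fold change 2.69, SE 0.56, q = 0.0033) and held under all alternatives run. At TL3d FADS1 overlapped control (log2 fold change 1.05, q = 0.181), with a spread between its libraries as wide as the difference. FADS2, the desaturase that acts before FADS1 and lies 90349 bases from it on the same piece of unplaced sequence, measured 5.22, 12.8, and 19.99 CPM in control and 21.1, 27.96, and 18.5 CPM at TL3h. Its libraries overlapped, and the log2 fold change had a 95% interval of -0.66 to 2.32. FADS1 and FADS2 were both lowest in replicate 1 and highest in replicate 3 of control, TL3d, and TL14d. In control and TL3d the summed fibroblast markers ran in the same order, at 12161, 35466, and 76287 CPM in control and 1328, 11713, and 64685 CPM at TL3d, and they were above every control library in the 3 TL3h libraries. They did not run in that order at TL14d, at 26629, 11014, and 57032 CPM, and at TL3h replicate 2 had the highest fibroblast sum and the lowest FADS1 level. Their part in the FADS1 level was not tested.

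ELOVL5, an elongase of polyunsaturated fatty acids (chromosome 12, 43008131 to 43091465, - strand), measured 86.3, 68.1, and 139 CPM in control and 146, 220.1, and 237 CPM at TL3h. All TL3h libraries exceeded control, by little in replicate 1 (log2 fold change 1.04, SE 0.26, q = 0.00813), and at TL3d ELOVL5 was at 91.6, 84.2, and 93.5 CPM, within the control range. ELOVL6, an elongase of saturated and monounsaturated fatty acids (chromosome 15, 39263532 to 39394630, + strand), moved down, with 138, 116, and 76.6 CPM in control, 46.1, 34.1, and 74.6 CPM at TL3h, and 79.8, 72.8, and 59.8 CPM at TL3d. TL3h replicate 3 lay just under the lowest control library, and the fall passed (log2 fold change -1.09, SE 0.31, q = 0.0162) except without control replicate 1. Like SREBF1, ELOVL6 was highest in control replicate 1 and lowest in control replicate 3, in the order of the epithelial markers of those libraries. MVK, LSS, and SCAP, the other genes lower at TL3h, ran in that order in control too. So did TM7SF2 and SREBF2, which did not pass at TL3h, and ELOVL1, which was higher there. The part of the epithelial markers in these levels was not tested. ELOVL1, an elongase of very long chains (chromosome 13, 123291093 to 123295868, + strand), measured 35.3 ± 1.82 CPM in control and 50.5 ± 8.45 CPM at TL3h (log2 fold change 0.52, SE 0.18, q = 0.0427), a call that was lost in 12 of 18 alternatives. The ELOVL5 call was lost when libraries were scaled by total count alone.

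**Figure D3:**
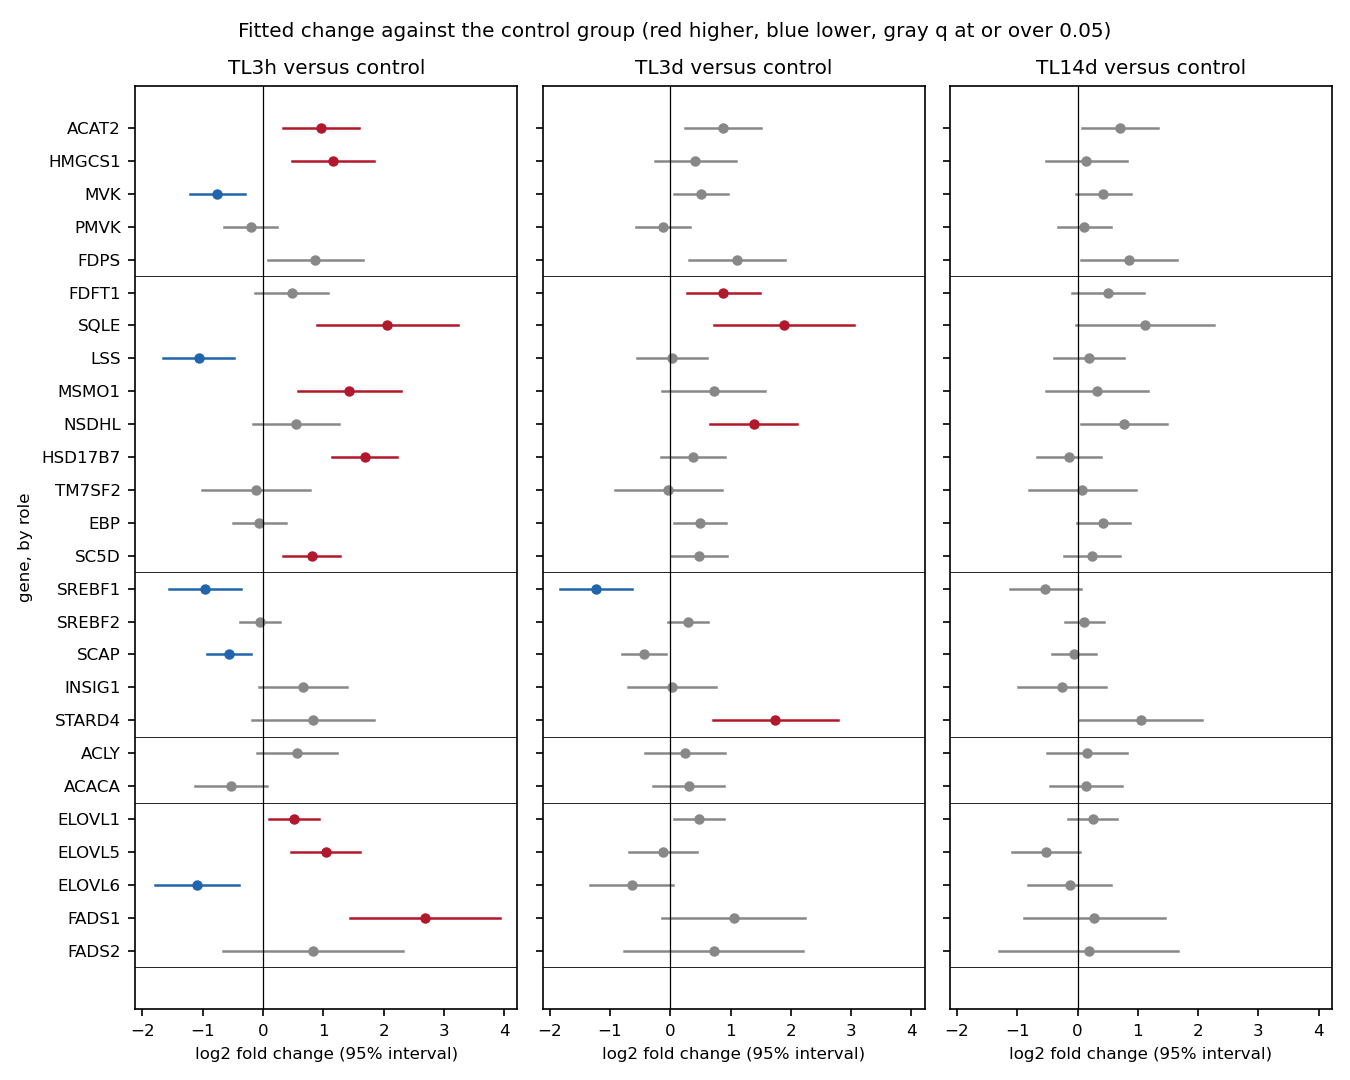
Fitted log2 fold change of each of the 26 genes against control at TL3h, TL3d, and TL14d, with 95% intervals, on 1 shared axis. Red points passed the test in the higher direction, blue points in the lower direction, and gray points did not pass. There are 14 colored points at TL3h, 5 at TL3d, and none at TL14d.

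The time points were also compared with each other. Between TL3h and TL3d, 7 of the 26 genes differed. MVK, LSS, EBP, and ACACA were higher at TL3d (15.4%, beside 18.4% of all genes), and HSD17B7, ELOVL5, and FADS1 were lower (11.5%, beside 19.0% of all genes). LSS and MVK rose from a mean of 38.8 ± 14.2 and 2.98 ± 0.680 CPM to 82.4 ± 17.6 and 7.21 ± 0.569 CPM, respectively, with no overlap. Between TL3h and TL14d, 11 of the 26 genes differed. MVK, LSS, SCAP, and ELOVL6 were higher at TL14d (15.4%, beside 22.9% of all genes), and HMGCS1, MSMO1, HSD17B7, SC5D, INSIG1, ELOVL5, and FADS1 were lower (26.9%, beside 22.3% of all genes). HSD17B7 fell from 141 ± 26.01 CPM at TL3h to 39.9 ± 2.09 CPM at TL14d, with no overlap (log2 fold change -1.82, SE 0.25, q = 0.000318). Between TL3d and TL14d none of the 26 genes differed in edgeR's quasi-likelihood test, beside 0.647% of all genes higher and 1.59% lower at TL14d. SREBF1 and SCAP had an unadjusted p below 0.05 there, as did 3350 of all genes, and DESeq2 called 0 of the 26 and 1850 of all genes. Without TL3h replicate 1, TL3d replicate 1, or TL3d replicate 2 the count between TL3h and TL3d was 4, and that over all genes went from 5537 to 4742, 4378, and 3954, respectively. Without TL3h replicate 1 or TL14d replicate 3 the count between TL3h and TL14d was 7, and that over all genes went from 6715 to 5861 and 5721, respectively. The split by direction moved with the scaling and with single libraries. When libraries were scaled by total count alone, 10 genes were higher and 2 lower at TL3d than at TL3h, and 9 were higher and 3 lower at TL14d than at TL3h. Over all genes that scaling put the median of the log2 differences at 0.43 and 0.49, and 80.5% of 6311 and 77.6% of 7444 calls were higher, respectively. Without TL3h replicate 3 these splits were 6 higher and 2 lower, and 6 higher and 3 lower, respectively, beside 4430 and 5549 of all genes, of which 52.3% were higher in each. Without TL3h replicate 2, 2 genes were higher and 4 lower at TL3d than at TL3h, beside 4452 of all genes, of which 51.1% were higher. Without TL14d replicate 3, 4 were higher and 3 lower at TL14d than at TL3h, and 52.3% of the 5721 genes called overall were higher.

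Within groups, single libraries set much of the spread. TL3h replicate 2 was the lowest of its group for 22 of the 26 genes and TL3h replicate 3 the highest for 17. TL3h replicate 2 also had the lowest summed epithelial markers of its group (5819 CPM, beside 10367 and 8897 CPM) and the highest fibroblast markers (125553 CPM). TL3d replicate 3 was the lowest of its group for 20 of the 26 genes, and its epithelial markers summed to 9952 CPM, beside 23824 and 21692 CPM. TL14d replicate 1 was the lowest of its group for 16 genes. Its mean absolute log2 difference from the control mean over the 26 genes was 0.28, whereas TL14d replicates 2 and 3 were at 0.57 and 0.48. Its leukocyte markers summed to 229 CPM, within the control range, and those of TL14d replicate 2 to 1005 CPM. For SQLE, FDPS, NSDHL, and STARD4, TL14d replicate 1 was below every control library and the other 2 TL14d libraries were above all of them. Without TL14d replicate 1, FDPS, NSDHL, and STARD4 passed at TL14d, as did 716 of all genes, of which none passed with it.

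Levels between genes were compared per length, in the deposited FPKM values. In control the mean FPKM of the 26 genes ran from 1.38 ± 0.20 for MVK to 39.7 ± 3.64 for ACLY. ACLY, SREBF1 (39.6 ± 12.7 FPKM), MSMO1 (37.0 ± 4.59 FPKM), HSD17B7 (35.2 ± 3.41 FPKM), and ELOVL5 (31.98 ± 10.8 FPKM) led the order, and these neighbors differed by less than their SD. SQLE, at 4.36 ± 0.66 FPKM, ranked 23 of 26 in control and 13 of 26 at TL3h. FADS1 moved from rank 19 to rank 5, and SREBF1 from rank 2 to rank 11. Ranks were taken on the mean FPKM within each group.

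Of the 26 genes, 12 had 1 annotated transcript and 14 had several. At TL3h, 10 of the 50 transcripts tested were higher and 5 were lower than control, and 14.1% of all transcripts tested were higher and 14.1% were lower. At TL3d, 1 was higher and 1 was lower, in NSDHL and SREBF1, beside 3.24% and 1.88% of all transcripts. The estimates split reads between transcripts that share most of their bases. In ELOVL1 the transcript that passed at TL3h was XM_017346389.1, with 1.59% of the gene's counts (0.298 CPM in control and 2.58 CPM at TL3h). Transcript XM_008265411.2, with 98.2% of the counts, did not pass there (log2 fold change 0.41, q = 0.132). ELOVL6 was expressed mainly as a pair of transcripts. Transcript XM_008267482.2 (6016 bases) measured 84.5, 78.8, and 38.1 CPM in control and 17.2, 9.27, and 22.3 CPM at TL3h, with no overlap (log2 fold change -2.05, SE 0.39, q = 0.00373). Transcript XM_002717122.3 (6063 bases) measured 51.7, 36.4, and 37.7 CPM in control and 25.7, 23.5, and 48.8 CPM at TL3h, with overlapping libraries and no passing difference. The same held in SCAP, where XM_008260547.2 fell from 93.7 ± 12.9 to 51.9 ± 7.71 CPM (log2 fold change -0.85, SE 0.20, q = 0.00976) and XM_008260548.2 measured 24.2 ± 1.47 and 25.5 ± 10.6 CPM. Whether the members of a pair changed unequally was not tested. In ACLY the shorter transcript XM_017349331.1 measured 52.4, 157, and 44.4 CPM at TL3h, so that the high value of replicate 2 stood in both transcripts but by a larger fold in this one.

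**Figure D4:**
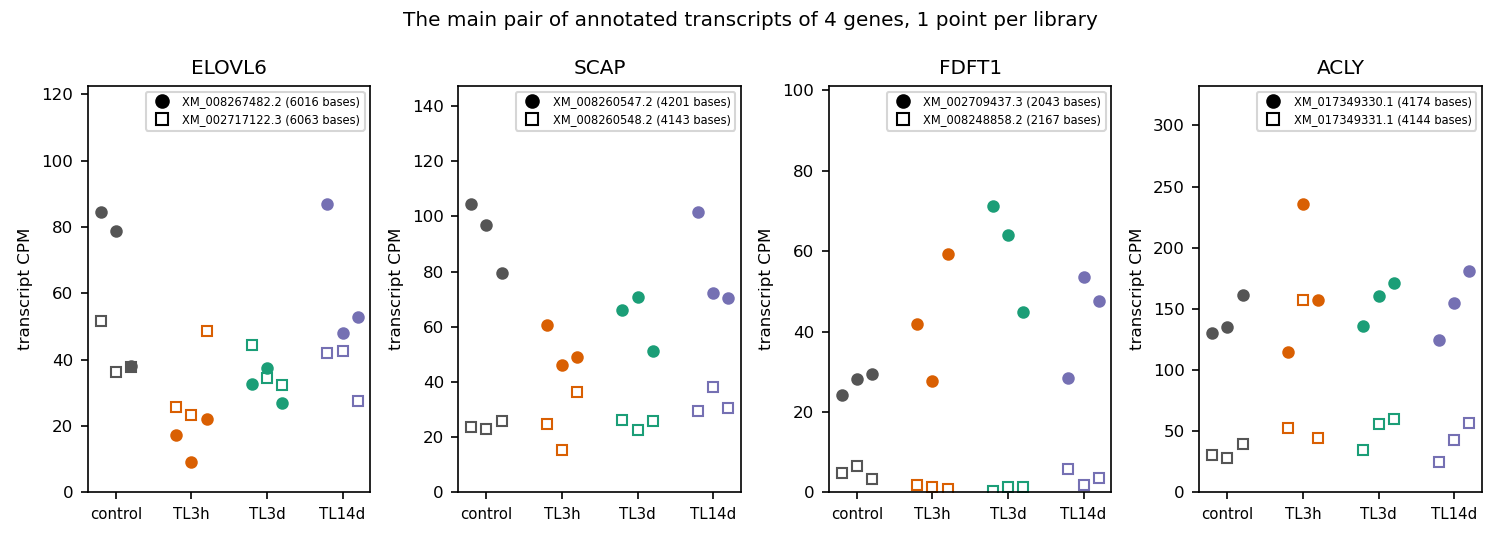
CPM of the 2 leading annotated transcripts of ELOVL6, SCAP, FDFT1, and ACLY in each library, as filled circles for the first and open squares for the second transcript named in each panel. In ELOVL6 and SCAP the circles drop at TL3h while the squares overlap the control squares, and in ACLY the second TL3h library stands above the rest in both.

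Genes next to these in the pathways were read from fixed lists. The list counts stand beside 23.2% of all genes higher and 22.2% lower at TL3h, and 10.6% and 7.0%, respectively, at TL3d. Of 5 other sterol synthesis enzymes, 1 was higher and 1 was lower at TL3h, and 2 were higher and 1 was lower at TL3d. The row LOC100355623, which the RefSeq table pairs by gene ID with CYP51A1, the lanosterol demethylase, measured 35.5, 38.8, and 42.01 CPM in control and 135, 73.1, and 175 CPM at TL3h (log2 fold change 1.72, SE 0.37, q = 0.00379) and also passed at TL3d (log2 fold change 1.22, q = 0.045). ACAT1, the mitochondrial thiolase that takes part in ketone and isoleucine breakdown, fell at TL3h (log2 fold change -0.96, q = 0.00874) and at TL3d (log2 fold change -1.12, q = 0.018). LBR, a nuclear envelope protein with sterol reductase activity, measured 92.8, 100.4, and 101 CPM in control, 107, 116, and 88.02 CPM at TL3h, and 191, 163, and 128 CPM at TL3d. All TL3d libraries were above control, and the TL3d difference passed (log2 fold change 0.71, q = 0.0253), a call that was lost in 4 of 18 alternatives. IDI1, isopentenyl diphosphate isomerase, had no row of its name, and the row LOC100343510, paired with it by gene ID, measured 8.09, 8.98, and 8.35 CPM in control, 17.3, 8.92, and 19.1 CPM at TL3h, and 21.1, 20.8, and 14.5 CPM at TL3d. TL3h replicate 2 lay within the control range and the other 5 of these operated libraries above it (log2 fold change 0.83, q = 0.0383 at TL3h and log2 fold change 1.15, q = 0.0278 at TL3d). The IDI1 call at TL3h was lost in 12 of 18 alternatives and that at TL3d in 5, and the CYP51A1 call at TL3d was lost in 10. The ACAT1 call at TL3d was lost in 4.

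Of 16 other fatty acid synthesis enzymes, 4 were higher and 3 were lower at TL3h, and 2 were higher at TL3d. Among all genes, 23.2% were higher and 22.2% lower at TL3h, and 10.6% and 7.0%, respectively, at TL3d. FADS3, which lies 3939 bases from FADS2, measured 6.36, 15.4, and 14.1 CPM in control, 31.9, 56.3, and 29.9 CPM at TL3h, and 22.9, 35.01, and 62.4 CPM at TL3d (log2 fold change 1.72, q = 0.0179 and log2 fold change 1.74, q = 0.0405, respectively). All of these operated libraries were above control, but the TL3h call was lost under scaling by total count and without control replicate 1 or TL3h replicate 2, and the TL3d call in 9 of 18 alternatives. ELOVL3, an elongase of hair and sebaceous glands, had 2, 2, and 4 counts in the control libraries and 14, 18, and 11 counts at TL3h, where it passed (q = 0.0115) except without control replicate 1. ELOVL2, an elongase of long polyunsaturated chains, fell from 1.27 to 0.468 CPM (log2 fold change -1.43, q = 0.0155), except without TL3h replicate 1. Of 14 genes tested for sterol sensing and cholesterol uptake, 4 were higher and 5 were lower at TL3h and none passed at TL3d, beside the same shares of all genes. INSIG2, the partner of INSIG1 in holding SCAP, fell from 61.4 ± 12.01 to 24.8 ± 4.18 CPM (log2 fold change -1.31, SE 0.21, q = 0.000873). MBTPS2, an intramembrane protease that releases the SREBP factors, fell from 38.4 ± 4.27 to 19.1 ± 0.735 CPM (log2 fold change -1.01, SE 0.13, q = 0.000219). MBTPS2 overlaps YY2 on the same strand. NPC1, which moves cholesterol out of lysosomes, measured 139, 80.5, and 85.6 CPM in control and 45.6, 51.3, and 69.04 CPM at TL3h, wholly below control (log2 fold change -0.88, q = 0.0191), a call that was lost without control replicate 1, TL3h replicate 1, or TL3h replicate 2. NPC1 overlaps a gene on the opposite strand by 255 bases.

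Of 11 genes of cholesterol efflux, esterification, and oxysterols, 2 were higher at TL3h and 2 were lower at TL3d. CH25H, which makes an oxysterol that holds the SREBP factors back, measured 2.71, 4.25, and 9.41 CPM in control, 155, 59.3, and 94.8 CPM at TL3h, and 14.7, 14.01, and 20.2 CPM at TL3d. All TL3h libraries were far above control, by 18.9-fold (log2 fold change 4.24, SE 0.69, q = 0.000835). CYP27A1, a sterol hydroxylase, fell at TL3d from 26.8 ± 4.64 to 8.54 ± 1.65 CPM (log2 fold change -1.65, q = 0.0216), and MLXIPL, a carbohydrate-responsive regulator of lipid synthesis, fell from 7.92 ± 3.86 to 1.40 ± 0.835 CPM (log2 fold change -2.50, q = 0.0398). These TL3d calls were lost in 4 and 9 of 18 alternatives, respectively. Of 15 genes of fatty acid activation and oxidation, 4 were higher and 5 were lower at TL3h, and 1 was higher and 4 were lower at TL3d. For this list and the one before, the shares over all genes were 23.2% higher and 22.2% lower at TL3h. At TL3d they were 10.6% and 7.0%, respectively. PPARA, a nuclear receptor that drives fatty acid oxidation, measured 90.4, 83.3, and 82.7 CPM in control, 21.5, 15.1, and 21.6 CPM at TL3h, and 36.9, 46.04, and 45.8 CPM at TL3d, with no overlap (log2 fold change -2.14, SE 0.27, q = 0.00022 at TL3h). ACSL4 and ACSL3, which activate fatty acids to acyl-CoA, rose at TL3h from 197 ± 86.8 to 649.9 ± 77.97 CPM (log2 fold change 1.72, q = 0.0023) and from 76.99 ± 13.6 to 227 ± 46.7 CPM (log2 fold change 1.56, q = 0.00699).

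SCD had no row of its name, but 5 rows carried the description acyl-CoA desaturase, 4 of them within a stretch of chromosome 18 from 48288721 to 48490023. These rows were chosen by their description and were not part of the list. Between 91.7% and 100% of the counts of these 4 rows were fractions, and whether the rows share reads was not tested. LOC100346561, the most abundant, measured 313, 189, and 185 CPM in control, 432, 255, and 648 CPM at TL3h, and 146, 659, and 304 CPM at TL14d, with overlapping libraries throughout (log2 fold change 0.96, q = 0.143 at TL3h). LOC100357419 measured 4.18, 30.3, and 5.12 CPM in control and 0.577, 0.996, and 0.549 CPM at TL3h, wholly below control (log2 fold change -4.22, SE 0.77, q = 0.00162). Control replicate 2 stood far above the other controls, and without it the log2 fold change was -2.72 and the call held. LOC100346046 and LOC100346306 did not pass at any time, and the row on unplaced sequence was too low to be tested.

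**Figure D5:**
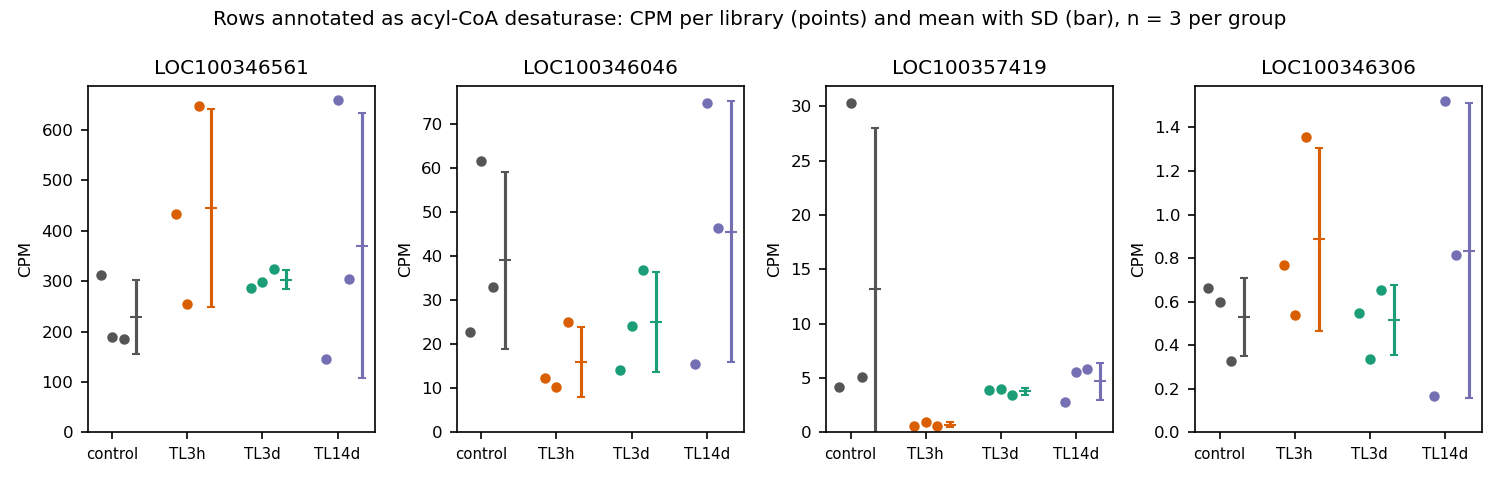
CPM of the 4 rows on chromosome 18 described as acyl-CoA desaturase, with 1 panel per row, 1 point per library, and a bar for the mean and SD of 3 libraries per group. LOC100357419 is below control in all TL3h libraries with 1 control library far above the others (its SD bar is cut at 0), and the other 3 rows overlap between groups.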

How the data were processed

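The authors aligned 150 bp paired-end reads of stranded mRNA libraries with STAR (2.6.0c in the submitters' processing notes) to OryCun2.0 and used GeneData Profiler Genome for values per gene and transcript. The authors deposited estimated counts, 23.4% of which were fractions in the gene table, and FPKM values. How reads with several placements were shared is not given in the sources used here. Estimated counts were rounded here. The edgeR filter (minimum count 10, minimum total 15) kept 14835 of 20566 genes and 26082 of 38710 transcripts. All 12 libraries entered 1 quasi-likelihood fit in edgeR 4.0.16 under R 4.3.3 with TMM factors, and p-values were Benjamini-Hochberg adjusted over all genes for 6 comparisons with a threshold of 0.05. Log2 fold changes used a prior count of 0.125, standard errors came from the test statistic, and 95% intervals from both. CPM used TMM-adjusted library sizes. FPKM values were used only for levels between genes. Alternatives were DESeq2 1.42.0, its size factors, library size only, no filter on low counts, a replicate block, only the libraries compared, and leaving out each of the 12 libraries.

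Groups came from the sample labels. The genes and pathway and marker lists were chosen with earlier results of these data known. Every listed gene with a row was named. From each other pathway list, the genes past the threshold at TL3h or TL3d with the 3 largest absolute log2 fold changes were named. A pair of genes of the pathway lists is not reported here and entered no list count. Of 172 listed symbols, 20 had no row of that name, and 8 of these were found by gene ID in the RefSeq table of another rabbit assembly, mOryCun1.1, which was used for names only. Positions are those of the deposited gene table on OryCun2.0, where unplaced pieces are joined, and positions on that joined sequence are not given. For genes with many counts, counting error alone is small at 27111348 to 38591425 counts per library. It is not small for rows with few counts, such as ELOVL3 (2, 2, and 4 in control) and ELOVL2 (10, 13.5, and 12 at TL3h). Gene, promoter, and protein sequences were not used here.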

Additional observations from a re-analysis of the deposited data

Results flagged for a closer look

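The change against control was not the same at each time point for part of the genes, as tested by comparing the operated groups directly in edgeR's quasi-likelihood fit. This comparison equals the difference between the changes against the shared control libraries. From TL3h to TL3d, the log2 difference was 1.27 for MVK, 1.09 for LSS, 0.555 for EBP, and 0.83 for ACACA, and it was -1.3 for HSD17B7, -1.16 for ELOVL5, and -1.64 for FADS1. EBP did not pass in 10 of 18 alternatives, FADS1 in 7, and ACACA in 4.

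From TL3h to TL14d, the log2 difference was 1.19 for MVK, 1.25 for LSS, 0.502 for SCAP, and 0.961 for ELOVL6. It was -1.01 for HMGCS1, -1.11 for MSMO1, -1.82 for HSD17B7, -0.57 for SC5D, -0.923 for INSIG1, -1.56 for ELOVL5, and -2.41 for FADS1. SC5D did not pass in 15 of 18 alternatives, MSMO1 and INSIG1 in 11 each, HMGCS1 in 5, and SCAP and ELOVL6 in 3 each. With 3 libraries a group, single libraries were not tested for lying apart from their group.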

How the results depend on the processing

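With 3 libraries a group, single libraries set the limits. Leaving out 1 library gave 8 to 15 of the 26 genes at TL3h against control (14 in the full set), 0 to 7 at TL3d (5), 0 to 3 at TL14d (0), 4 to 9 between TL3h and TL3d (7), 7 to 11 between TL3h and TL14d (11), and 6 to 17 over the 3 time points (14). The lowest counts are those without control replicate 1 at TL3h, without control replicate 1, control replicate 2, TL3d replicate 1, or TL3d replicate 2 at TL3d, and without control replicate 1 or 2 over the time points, and the 3 at TL14d are those without TL14d replicate 1. Among their transcripts, 7 to 20 passed at TL3h (15) and 0 to 9 at TL3d (2). Counts over all transcripts in these fits, and over all genes for the 3 time points jointly, are not given here. Fewer libraries entered each of these fits. At TL3d against control, DESeq2 gave 9 genes and the fit to only the libraries compared gave 9 (beside 4471 and 3263 of all genes, and 2608 in the full set), and without a filter on low counts 1 transcript passed. Between TL3h and TL3d, scaling by total count alone gave 12 genes, 10 higher and 2 lower at TL3d (4 and 3 in the full set), beside 6311 of all genes (5537), and between TL3h and TL14d the fit to only the libraries compared gave 6 (beside 5194 of all genes, and 6715 in the full set). For these 4 settings the cause was not tested. At TL3h, SQLE, LSS, HSD17B7, and FADS1 passed in all 18 alternatives, at TL3d none of the 5 did, and no gene that passed changed its direction in any alternative. Of the genes that did not pass, 4 at TL3h, 5 at TL3d, and 9 at TL14d changed sign in at least 1 alternative. Deviations of libraries with the same replicate number correlated at -0.149 to 0.287 between TL3h and control, -0.136 to 0.517 between TL3d and control, 0.0112 to 0.429 between TL14d and control, -0.153 to 0.249 between TL3h and TL3d, -0.0692 to 0.0584 between TL3h and TL14d, and 0.0614 to 0.487 between TL3d and TL14d. In no comparison were all 3 above 0.1, the level required, so the numbers were not taken to pair the samples. With the replicate number as a block, 14 genes passed at TL3h, 4 at TL3d, 0 at TL14d, 7 between TL3h and TL3d, and 9 between TL3h and TL14d. Over all genes the counts with this block were 6946, 2719, 0, 5831, and 6844, respectively.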
